A study of Ovis aries with 16 samples.

Results

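The genes described here are the lineage and patterning transcription factors on a lung array of newborn lambs. They were chosen by symbol alone: every gene in the platform's probe-to-gene table whose symbol starts with FOX, SOX, HOXA, HOXB, HOXC, HOXD, GATA, TBX, NKX, MEIS, PBX or PITX followed by a letter or number, without FOXM1, TBXAS1 and TBXA2R. This gave 42 of 9155 genes, of which 11 were FOX, 5 SOX, 11 HOX, 6 GATA, 2 TBX, 6 MEIS and PBX, 1 PITX and 0 NKX genes. The prefixes also caught 4 genes that are not DNA-binding members of those families, FOXRED1, GATAD1, GATAD2A and PBXIP1, which leaves 38. Each gene was represented by its probe set with the highest mean over the 16 arrays.

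The arrays held peripheral lung RNA of 8 shunt lambs and 8 control lambs (Ovis aries), each 3 days old. In the shunt lambs a Gore-tex graft, 8.0 mm wide and 2 mm long, had been placed between the aorta and the main pulmonary artery in fetal life, 9 ± 6 days before term, which raises blood flow through the lung and models a heart defect of the newborn. The control lambs had a sham operation at the same stage, so both groups went through fetal surgery and a spontaneous delivery. The labels give no strain or sex and do not describe the lambs singly. Arrays were treated as separate lambs, and were that not so, the p-values would cover only technical spread. The surfactant gene SFTPC, the defining marker of alveolar type 2 cells, was at a mean log2 level of 13.29 in shunt and 13.44 in control lung, at percentile 99.4 of the genes.

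Transcription factors of these families bind DNA through a shared domain, such as the forkhead domain of FOX proteins, the HMG box of SOX proteins and the homeodomain of HOX, MEIS, PBX and PITX proteins, and set or keep the identity of a cell lineage or a body region. In the lung, FOX, GATA and SOX factors are known for their part in epithelium, airway and endothelium, and HOX factors with their MEIS and PBX partners for regional identity of the mesenchyme. They are made in small amounts by subsets of cells, so whole lung RNA averages each of them over many cell types.

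None of the 42 factors passed the test across all genes. The test was limma's moderated test with Benjamini-Hochberg adjustment over 9155 genes at a threshold of 0.05, which 0 members passed, where 0.0874% of all genes did. The lowest adjusted p among the members was 0.192, for SOX18. At an unadjusted p under 0.05, 5 members stood out, 2 higher in shunt lung (SOX18 and MEIS2) and 3 lower (SOX2, GATA5 and GATA4). That share of the members was below the background: 14.5% of all genes had such a p, 6.63% of them as higher and 7.92% as lower in shunt. An exact permutation test of each member over the 12870 divisions of the lambs gave 2 higher and 4 lower at p under 0.05, the added gene being SOX10, where 14.7% of all genes passed that test, 6.31% as higher and 8.37% as lower. Shunt and control overlapped for every one of the 42 members, and 0.153% of all genes had groups that did not overlap.

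The differences were small. They are given throughout as shunt minus control on the log2 scale of RMA, the authors' normalization, with the standard error (SE) of the fit. Their median over the members was -0.02, against -0.01 over all genes, and their median size without sign was 0.06, against 0.07 over all genes. In 4 members (SOX18, SOX2, HOXB7 and MEIS2) the difference was larger than 0.2, which is 9.52% of them, against 9.89% of all genes. It was above 0 in 16 members (38.1%), where it was above 0 in 44.9% of all genes and in 33.5% of the lowest 25% of genes by mean level.

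**Figure D1:**
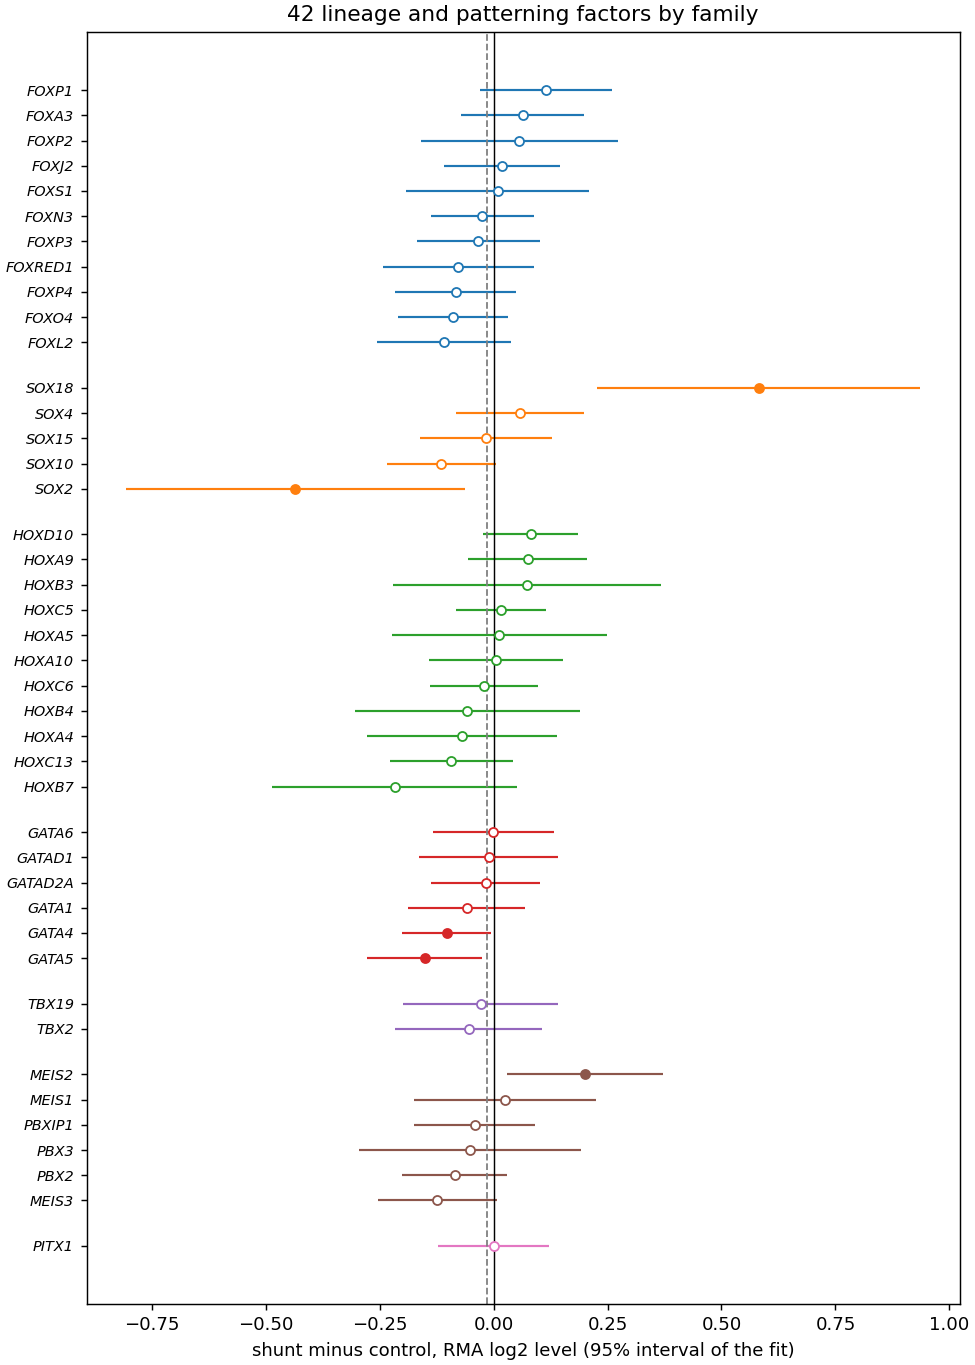
Difference between shunt and control lung for the 42 factors, by family (colours), on the RMA log2 scale. Points are the fitted differences and bars their 95% intervals; filled points have an unadjusted limma p under 0.05, and the dashed line is the median of all genes, -0.01. SOX18 at 0.58 and SOX2 at -0.43 lie farthest from 0, and the intervals of the open points all span it.

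Pairs of arrays correlated at 0.98 to 0.995. The array of control replicate 2 was the least like the others (mean correlation 0.983, array weight 0.274). Array medians were 7.135 ± 0.009 in shunt and 7.158 ± 0.016 in control lung (SD, n = 8 each). The median difference over all genes also moved with signal, from -0.04 in the lowest 25% of genes by mean level, called dim below, to 0.02 in the highest 25%, and 22 of the 42 members (52.4%) were dim. Signal over background is unknown for them, because no detection calls were used. Each probe binds with its own strength and the probes are bovine. Percentiles and the words dim, dimmer and brighter therefore rank probe sets by signal, not by amount of RNA. RMA levels of different genes are not otherwise compared below.

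SOX18 had the largest difference of the 42. It is a factor of endothelial cells, needed in mice and humans for blood and lymph vessels, and was the 1 measured gene of the 9 endothelial factors listed by role. Its log2 level ran from 8.44 through a median of 8.98 to 9.26 in shunt lambs, against 7.59 through 8.28 to 9.09 in control lambs. All 8 shunt lambs lay above the control mean, but the groups overlapped, with control replicates 6, 7 and 8 (9.09, 8.69 and 8.58) above the lowest shunt lamb. The means were 8.92 ± 0.27 in shunt and 8.34 ± 0.46 in control (SD, n = 8 each), a difference of 0.58 ± 0.17 (SE), or 1.50-fold, with a 95% interval from 0.23 to 0.94 (exact permutation p = 0.00839, limma adjusted p = 0.192). Without control replicate 6, the control with the highest SOX18, the difference was 0.69 and the adjusted p = 0.0732.

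Some of the endothelial markers were higher in shunt, as SOX18 was. Of 11 measured endothelial markers, 0 passed the adjusted threshold in limma, and 5 had an unadjusted p under 0.05. All 5 were higher in shunt, among them PECAM1 (0.28 ± 0.05), ENG (0.32 ± 0.09) and TEK (0.20 ± 0.07). Of the 11 differences 8 were above 0 and 3 below, CLDN5 and VWF at -0.11 each among the latter, and CDH5 was at 0.02 ± 0.08. VWF was dim (percentile 4.84 of the genes), as was KDR (percentile 13.2), which was at 0.08 ± 0.08. CLDN5, at percentile 27.8, was not dim. The mean log2 level of the list ran from 9.11 to 9.38 in shunt lambs and from 9.01 to 9.21 in control lambs. In bulk lung RNA, more cells of a type and more RNA per cell cannot be told apart. Within the groups, a relation of SOX18 to the list was not resolved with 8 lambs each. Across the 8 shunt lambs Pearson's r was 0.58 (exact permutation p = 0.137) and Spearman's rho 0.64 (exact permutation p = 0.0962). Across the 8 control lambs r was 0.11 (exact permutation p = 0.780) and rho -0.07 (exact permutation p = 0.882). Without the 2 lambs farthest from the median of the list, r was 0.38 in shunt and 0.58 in control. With the endothelial mean as a covariate of the fit, the SOX18 difference was 0.43 ± 0.21 (limma unadjusted p = 0.0557, adjusted p = 0.786). The control lamb with the highest SOX18, replicate 6, had an endothelial mean of 9.16, where the highest control mean was 9.21. Of 4 measured lymphatic endothelial markers, 0 had an unadjusted p under 0.05 in limma. Their differences were above 0 in 2 and below in 2, with CCL21 at 0.36 ± 0.18 and LYVE1 at -0.10 ± 0.21.

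Other marker lists differed between the groups at the same time. Of 6 measured genes of cycling cells, 5 were higher in shunt at an unadjusted p under 0.05, with a median difference of 0.46, and their mean level ran from 8.70 to 9.58 in shunt lambs and from 7.89 to 9.38 in control lambs. All 7 alveolar type 2 markers, all 5 alveolar type 1 markers and all 5 neutrophil markers had differences below 0, and 3 of each list had an unadjusted p under 0.05. Over all genes 6.63% were higher and 7.92% lower at such a p. Differences were below 0 in 5046 of the 9155 genes and in 1522 of the 2288 dim genes. Among the 2289 genes with the highest mean levels, 925 were below 0, and 247 were higher and 100 lower at such a p. SFTPB, SFTPC, SFTPA1, SFTPD, AQP5, PDPN, AGER and HOPX were among these brightest genes, and none of the alveolar markers was dim. The neutrophil genes with such a p, ELANE, MPO and CAMP, were all dim, and S100A8, which was not, was at -0.07 ± 0.26. The part of these lists in the differences of the factors was not tested.

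**Figure D2:**
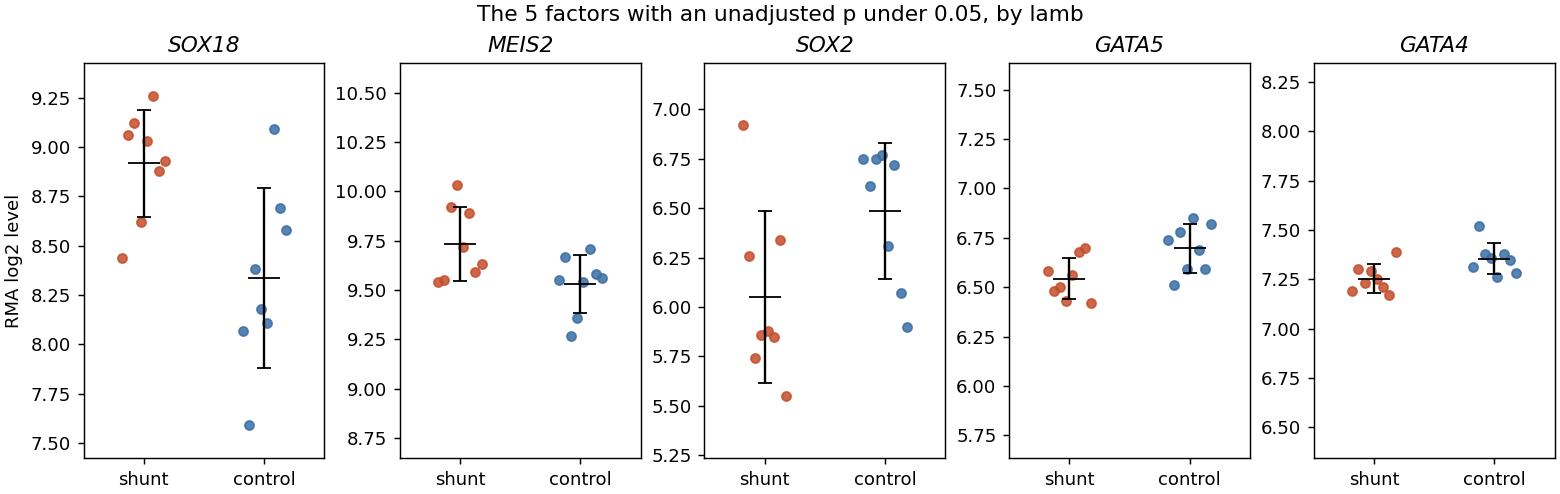
RMA log2 level of the 5 factors with an unadjusted p under 0.05, 1 point for each lamb, with the mean and SD of each group (n = 8). Every panel spans 2 log2 units. SOX18 and MEIS2 are higher and SOX2, GATA5 and GATA4 lower in shunt lambs, and the groups overlap in all 5 panels.

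SOX2 had the largest difference in the other direction. SOX2 marks the airway epithelium in the lung, where it sets the proximal lineage in mice, and is best known as a pluripotency factor. Its log2 level ran from 5.55 through a median of 5.87 to 6.92 in shunt lambs, against 5.90 through 6.67 to 6.77 in control lambs. Of the 8 shunt lambs 7 lay below the control mean, and the exception, shunt replicate 1, had the highest level of all 16 lambs. The means were 6.05 ± 0.44 in shunt and 6.48 ± 0.35 in control (SD, n = 8 each), a difference of -0.43 ± 0.18 (SE), with an interval from -0.81 to -0.06 (exact permutation p = 0.0463, limma adjusted p = 0.281). Without shunt replicate 1 the difference was -0.56, and without shunt replicate 8 it was -0.36, where its unadjusted limma p was no longer under 0.05. The SOX2 probe set was dim, at percentile 15.7 of the genes.

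SOX2 followed the airway markers from lamb to lamb in both groups. Of 5 measured secretory and basal markers, 0 were higher and 2 were lower at an unadjusted p under 0.05, TFF3 (-0.63 ± 0.23) and BPIFA1 (-0.26 ± 0.11). Over all genes 6.63% were higher and 7.92% lower at such a p. The mean level of the 5 markers ran from 6.83 to 7.42 in shunt lambs and from 7.01 to 7.87 in control lambs. Across the 8 shunt lambs SOX2 had an r of 0.89 with that mean (exact permutation p = 0.0025, adjusted p = 0.0100) and a rho of 0.86 (adjusted p = 0.0286). Across the 8 control lambs r was 0.79 (exact permutation p = 0.0148, adjusted p = 0.0396) and rho 0.88 (adjusted p = 0.0286). Without the 2 lambs farthest from the median, r was 0.78 in shunt and 0.91 in control. These last values come from 6 lambs in each group, and no p-value was computed for them.

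SOX2 also followed the markers of ciliated cells. Of 5 measured ciliated markers, 0 had an unadjusted p under 0.05, with TEKT1 at -0.31 ± 0.18 and CAPSL at -0.32 ± 0.21, and their mean ran from 7.64 to 9.32 in shunt lambs and from 7.88 to 8.89 in control lambs. With it SOX2 had an r of 0.95 across shunt lambs (exact permutation p = 0.000918, adjusted p = 0.00734, rho 0.86) and of 0.80 across control lambs (exact permutation p = 0.0224, adjusted p = 0.0448, rho 0.81), and r was 0.74 in shunt and 0.96 in control without the 2 farthest lambs. Shunt replicate 1 had both the highest ciliated mean and the highest SOX2. With the secretory and basal mean as a covariate, the SOX2 difference between shunt and control was -0.06 ± 0.13 (limma unadjusted p = 0.645, adjusted p = 0.929). With the ciliated mean it was -0.25 ± 0.09 (limma unadjusted p = 0.013, adjusted p = 0.281). The part of the amount of airway in each tissue piece was not tested beyond these values. These relations belong to a set of 4, each computed in both groups and adjusted over the 8 tests, and the pairs were chosen after the differences were known.

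**Figure D3:**
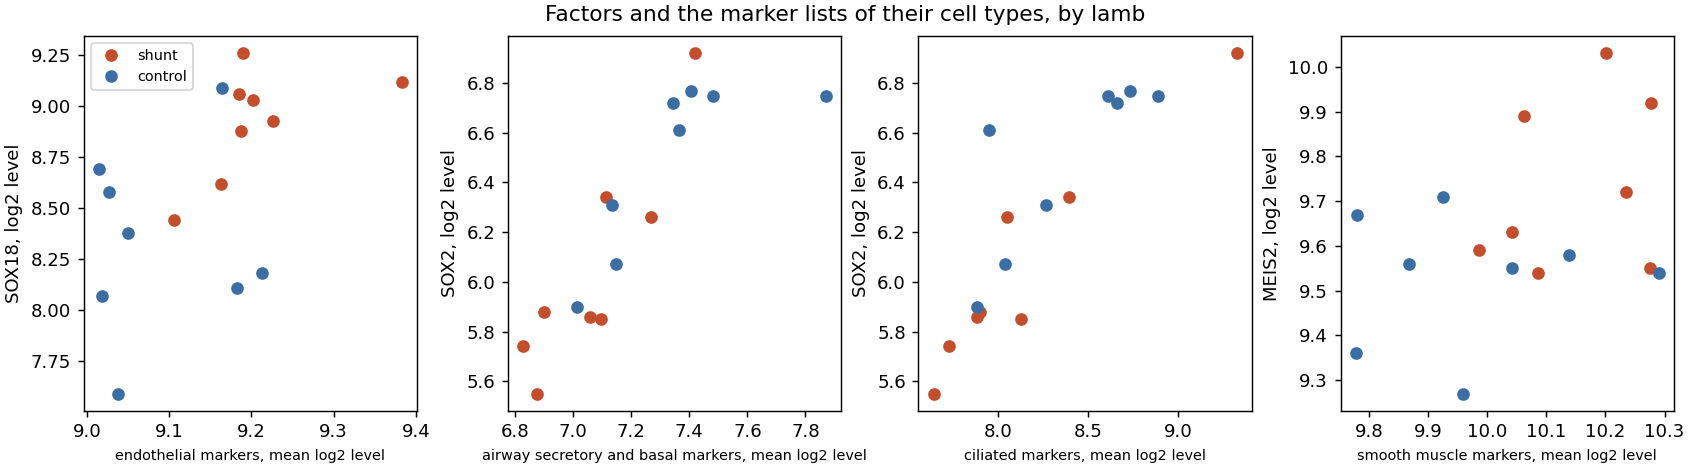
Level of SOX18, SOX2 and MEIS2 in each lamb (vertical, RMA log2) against the mean log2 level of a marker list of the same lamb (horizontal), shunt and control in different colours. SOX2 climbs with the airway lists in both groups (r from 0.79 to 0.95), while SOX18 and MEIS2 scatter more (r from 0.06 to 0.58).

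The other SOX factors were close to 0. SOX10, a neural crest factor, was at a log2 level of 5.44 to 5.66 in shunt lambs, with a median of 5.56, against 5.59 to 5.99 in control lambs, with a median of 5.62. All 8 shunt lambs lay below the control mean, which control replicate 2 raised with its 5.99, and the difference was -0.11 ± 0.06 (exact permutation p = 0.0106, limma adjusted p = 0.359), or -0.07 without that lamb. SOX4, which is widely made in developing tissues, differed by 0.06 ± 0.07 and SOX15 by -0.02 ± 0.07. SOX2, SOX4, SOX10 and SOX15 were all dim, and SOX18 was not.

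All 6 GATA members had a difference below 0, as 5046 of the 9155 genes did, and for 4 of the 6 it was within 1 SE of 0. GATA5 and GATA4, zinc finger factors of the heart and of endoderm-derived organs, had the smallest p. GATA5 ran from 6.42 through a median of 6.53 to 6.70 in shunt lambs, against 6.51 through 6.71 to 6.85 in control lambs. GATA5 was under the mean of the controls in 7 of 8 shunt lambs, with a difference of -0.15 ± 0.06 (exact permutation p = 0.0225, limma adjusted p = 0.270). GATA4 ran from 7.17 through 7.24 to 7.39 in shunt lambs, against 7.26 through 7.36 to 7.52 in control lambs, a difference of -0.10 ± 0.05 (exact permutation p = 0.0155, limma adjusted p = 0.326), again in 7 of 8 lambs. With 1 lamb left out GATA4 kept an unadjusted limma p under 0.05 in 6 of 16 fits, with a difference from -0.12 to -0.08.

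GATA6, the GATA factor best known from lung epithelium and smooth muscle, had the same mean in both groups. Its log2 level was 11.57 ± 0.08 in shunt and 11.57 ± 0.15 in control lung (SD, n = 8 each), and the 95% interval of the difference ran from -0.13 to 0.13. GATA1, the factor of red blood cell precursors, was dim (percentile 9.77) and differed by -0.06 ± 0.06. GATAD1 and GATAD2A, chromatin proteins that carry a GATA-type zinc finger, differed by -0.01 ± 0.07 and -0.02 ± 0.06.

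MEIS2 was the second member with a higher level in shunt. MEIS and PBX proteins are homeodomain factors that bind DNA together with HOX proteins. MEIS2 ran from 9.54 through a median of 9.68 to 10.03 in shunt lambs, against 9.27 through 9.55 to 9.71 in control lambs. All 8 shunt lambs lay above the control mean, 4 of them (replicates 3, 4, 5 and 6) above every control lamb and the other 4 among the controls. The difference was 0.20 ± 0.08 (SE), or 1.15-fold, with an interval from 0.03 to 0.37 (exact permutation p = 0.0347, limma adjusted p = 0.279), and a second, dimmer probe set of MEIS2 differed by 0.19 ± 0.12. Beside it, 4 of 7 smooth muscle markers were higher in shunt at an unadjusted p under 0.05, MYH11 (0.33 ± 0.11) among them, and 0 were lower. Of the 7 differences 5 were above 0 and 2 below, the lowest being CNN1 at -0.18 ± 0.09, and DES was at 0.02 ± 0.08. The mean of that list ran from 9.99 to 10.28 in shunt lambs and from 9.78 to 10.29 in control lambs. A relation of MEIS2 to that mean was not resolved within shunt lambs (r 0.32, exact permutation p = 0.423, rho 0.26) or control lambs (r 0.06, exact permutation p = 0.889, rho -0.10). Without the 2 farthest lambs r was 0.01 in shunt and -0.06 in control. With the smooth muscle mean as a covariate the MEIS2 difference was 0.17 ± 0.10 (limma unadjusted p = 0.101, adjusted p = 0.526). Of 8 measured fibroblast markers, 1 was higher and 0 were lower at an unadjusted p under 0.05, with a median difference of 0.06.

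The other members of this family lay nearer to 0. MEIS1 was 9.75 ± 0.15 in shunt and 9.72 ± 0.24 in control (SD, n = 8 each), a difference of 0.03 ± 0.09. MEIS3 differed by -0.12 ± 0.06 (exact permutation p = 0.0595), with 7 of 8 shunt lambs below the control mean, and its other probe sets by -0.10 and -0.04. PBX2 differed by -0.09 ± 0.06, and its dimmer probe set by -0.16 ± 0.07 (limma adjusted p = 0.349 over probe sets). PBX3 differed by -0.05 ± 0.12 and PBXIP1, which is no homeodomain protein, by -0.04 ± 0.06. None of the 6 was dim.

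The 11 HOX members, which give cells their position along the body axis, showed 0 genes with an unadjusted p under 0.05 in limma. Their median difference was 0.01, with 6 above 0 and 5 below. HOXA5, required in mice for airway and lung development, was 11.45 ± 0.25 in shunt and 11.43 ± 0.24 in control (SD, n = 8 each), a difference of 0.01 with a 95% interval from -0.22 to 0.25. HOXB7 had the smallest p of the family in limma (adjusted p = 0.438), at -0.22 ± 0.13, which was -0.09 without control replicate 2. It ran from 6.37 through 6.59 to 6.74 in shunt lambs, against 6.44 through 6.71 to 7.65 in control lambs, and its highest control was replicate 2, with the next at 6.77. For several HOX genes the SD between lambs of a group was larger than the difference, among them HOXB3 (SD 0.24 in shunt and 0.36 in control, difference 0.07) and HOXB4 (SD 0.23 in shunt and 0.28 in control, difference -0.06). HOXA9, HOXA10, HOXB7, HOXC6, HOXC13 and HOXD10 were dim, and HOXA4, HOXB3 and HOXC5 were not, with differences of -0.07, 0.07 and 0.02.

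The 11 FOX members lay between -0.11 and 0.12, with 0 at an unadjusted p under 0.05. The FOXP genes act as repressors in lung epithelium and in lymphocytes. FOXP4 was 11.67 ± 0.10 in shunt and 11.75 ± 0.14 in control (SD, n = 8 each), a difference of -0.08 ± 0.06, with 7 of 8 shunt lambs below the control mean and a second probe set at -0.13 ± 0.07. FOXP1 depended on the probe set, with 0.12 ± 0.07 for the brighter and -0.10 ± 0.06 for the dimmer one. FOXP2 differed by 0.06 ± 0.10, and FOXP3, the factor of regulatory T cells, by -0.03 ± 0.06. The 7 measured T cell markers had a median of -0.10. Of these markers 0 were higher and 1 was lower at an unadjusted p under 0.05, where 6.63% of all genes were higher and 7.92% lower.

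Outside the FOXP genes, FOXO4, a target of insulin and AKT signalling, differed by -0.09 ± 0.06 with 7 of 8 shunt lambs below the control mean. FOXA3, a pioneer factor of endoderm, differed by 0.06 ± 0.06 and FOXL2, a factor of the ovary, by -0.11 ± 0.07, both on dim probe sets. FOXN3 and FOXS1 were within 0.03 of 0, and FOXJ2 was at 0.02 ± 0.06, with a dimmer probe set at 0.11 ± 0.06. FOXRED1, which takes part in the assembly of mitochondrial complex I and is no forkhead protein, differed by -0.08 ± 0.08.

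The smallest families were TBX and PITX. TBX2, a T-box factor of the lung mesenchyme in mice, ran from 5.99 to 6.18 in shunt lambs and from 5.67 to 6.34 in control lambs, a difference of -0.05 ± 0.08. TBX19, a factor of the pituitary, differed by -0.03 ± 0.08. PITX1, a factor of hindlimb identity, differed by 0.00 ± 0.06, and its other probe set by -0.07 ± 0.05. All 3 were dim.

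Of the 10 members with more than 1 probe set, 7 had probe sets that all differed in the same direction. The exceptions were FOXP1, HOXA5 and PITX1. Over the 53 probe sets of the members, 0 passed limma after adjustment over all probe sets, where 0.0708% of the 24016 probe sets did, and 6 had an unadjusted p under 0.05, as did 13.7% of all probe sets.

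**Figure D4:**
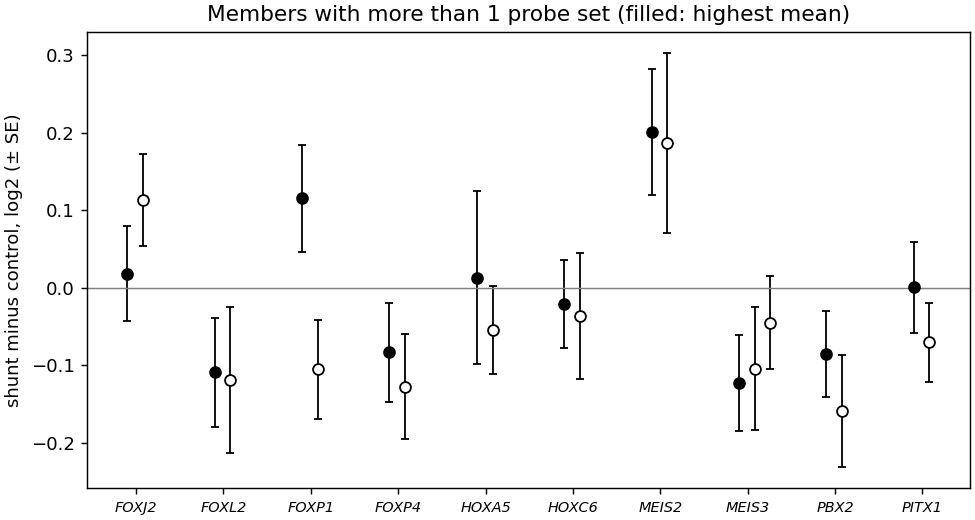
Difference between shunt and control (RMA log2, ± SE) for each probe set of the 10 factors with more than 1, the probe set with the highest mean filled. The 2 probe sets of MEIS2 are at 0.20 and 0.19, and those of FOXP1 lie on opposite sides of 0.

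By role, the factors of the epithelium (6 measured of 11) had a median difference of 0.03, with SOX2 the 1 gene at an unadjusted p under 0.05. Those of the mesenchyme (4 measured of 14) had a median of 0.02, with MEIS2 the 1 such gene, and those of blood cells (4 measured of 8) had a median within 0.01 of 0 and 0 such genes. A further 31 lineage factors outside the families were measured of 62 listed, with 0 past the adjusted threshold in limma and a median of 0.07. At an unadjusted p under 0.05, 5 of the 31 were higher and 4 lower, where 6.63% of all genes were higher and 7.92% lower. The 4 of the 31 with the smallest p were FLI1, an ETS factor of endothelium and blood (0.39 ± 0.07, limma adjusted p = 0.0519), ETS2 (0.23 ± 0.07), the epithelial ETS factor ELF3 (-0.15 ± 0.05) and SNAI1 (0.23 ± 0.07). FOXF1, FOXA1, FOXA2, FOXJ1, SOX9, SOX17, GATA2, GATA3, TBX4, TBX5 and NKX2-1 were not analysed here.

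Spread between lambs was larger in control than in shunt for 28 of the 42 members, with a median SD of 0.11 in shunt and 0.14 in control. The same held for 6160 of all 9155 genes, with medians of 0.13 in shunt and 0.16 in control. The number of arrays limits the precision. The SE of the members ran from 0.05 for GATA4 to 0.18 for SOX2.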

How the data were processed

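Lung RNA was hybridized to bovine Affymetrix arrays, 1 for each of 8 shunt and 8 control lambs. The authors deposited log2 values per probe set. Per the submitters' processing notes RMA made them, which corrects background, normalizes arrays by quantiles and summarizes probes (version not given in the sources used here). After removal of 112 manufacturer controls 24016 probe sets remained, 13292 with a single symbol, 86 with more than 1 and 10638 unnamed. Symbols of all 42 members were found in a sheep gene table (ARS-UI_Ramb_v3.0). Coordinates were not used, since the builds differ.

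All 9155 genes were fitted with limma 3.58.1 in R 4.3.3 (no covariate, shunt minus control), and p-values were adjusted over them. Intervals of 95% are those of this fit. The scripts were tested on simulated data. Exact permutation tests were two-sided and used scipy 1.17.1. No scan date or batch was known. Same-numbered shunt and control lambs were not paired in the fit, since the labels name no pairing. Their deviations correlated at -0.27 to 0.19, which cannot show whether they shared a batch.

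The members follow from the symbol rule alone. The rule, the role lists and the marker lists were set with earlier results of these data known. Genes named were those with an unadjusted p under 0.05, the smallest p and the brightest of each family, and a list of lung factors; other members are given so that all are accounted for. The alternatives are listed in the closing section.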

Additional observations from a re-analysis of the deposited data

Results flagged for a closer look

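Each group of 8 was searched for a lamb whose distance to the next lamb was more than 0.526 of the group's range. One turned up in 11 of 92 sets of values (42 factors and 4 marker lists in both groups), and chance would give about 5.

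Control replicate 2 accounted for 5 of the 11, and was the highest control each time. Its level was 7.65 for HOXB7 (next 6.77, ratio of gap to range 0.723), 5.99 for SOX10 (next 5.68, ratio 0.768), 6.93 for TBX19 (next 6.43, ratio 0.692), 6.56 for FOXA3 (next 6.27, ratio 0.537) and 7.52 for GATA4 (next 7.38, ratio 0.535). Control replicate 1 was the highest for FOXP1 (5.73, next 5.51, ratio 0.562) and control replicate 5 for MEIS1 (10.25, next 9.79, ratio 0.546).

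Among the shunt lambs, replicate 7 was the highest for MEIS3 (7.19, next 7.00, ratio 0.625) and FOXP4 (11.89, next 11.72, ratio 0.549). Shunt replicate 1 was the highest for the ciliated marker mean (9.32, next 8.39, ratio 0.553) and shunt replicate 3 for the endothelial marker mean (9.38, next 9.23, ratio 0.565).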

How the results depend on the processing

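In 26 alternative fits, and with all probe sets tested, 0 members passed at an adjusted p under 0.05, the lowest adjusted p being 0.0732 (SOX18, without control replicate 6). At an adjusted p under 0.10, 0 members passed in the fit of all 16 arrays. SOX18 kept an unadjusted p under 0.05 in all 16 fits with 1 array left out (difference from 0.48 to 0.69) and in all 10 other fits without a marker covariate, GATA5 in 16 and in 7 of 9, SOX2 in 15 and in 9 of 9, MEIS2 in 12 and in 6 of 10, and GATA4 in 6 and in 4 of 10. The count of members higher at an unadjusted p under 0.05 was 1 with the most variable probe set, 4 with array weights, and from 1 to 3 with 1 array left out. It was 1 without control replicate 3 or 4 or shunt replicate 3 or 4, where MEIS2 missed. The count lower was 5 when the probe sets of a gene were averaged (FOXP4 and PBX2 added) and 1 without the lowest 25% of genes by level (SOX2 and GATA5 were left out by it), after quantile normalization again and after cyclic loess (SOX2 in both, with HOXD10 in place of MEIS2 among the higher), and from 2 to 6 with 1 array left out, with 6 without control replicate 8. Over all genes the share higher at such a p was 6.27% with the most variable probe set and 6.84% with array weights. With 1 array left out it ran from 5.07% to 7.65%. The share lower was 8.76% with averaged probe sets, 7.11% without the lowest 25%, 8.31% after quantile normalization and 7.26% after cyclic loess. With 1 array left out that share ran from 6.19% to 9.73%, the highest being without control replicate 8. The causes of the changed counts were not tested. With the replicate number as a block, 1 member was higher and 2 were lower, where 5.9% of all genes were higher and 6.67% lower. In that fit 0 genes passed the adjusted threshold over the whole table in limma. Same-numbered lambs had correlations of their deviations from -0.27 to 0.19, over 0.1 in 2 of 8 pairs. These values cannot show whether such lambs shared a batch, and the labels do not say. Leaving out together control replicate 2, the array least like the others, and shunt replicate 1, with its high ciliated mean, and using marker means as covariates were chosen after seeing the data. Without these 2 arrays 3 members were higher and 2 lower, where 5.78% of all genes were higher and 9.43% lower. Members with differences near 0 changed sign most often, HOXA5 in 12 of 26 fits. PITX1, which the fit without the lowest 25% of genes by level left out, changed sign in 8 of the others. Signal over background is unknown, which limits the 22 dim members most.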
